A study of Mus musculus with 4 samples.

Results

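The blood neutrophil transcriptome is described here by abundance, from the 2 libraries whose labels name the cells as neutrophils (NEU), out of 4 libraries in the series. The other 2 hold monocytes (MON) and are given only as values side by side. Within each library the 21474 protein-coding genes of the annotation were ranked by their estimated read counts, scaled to the sum over those genes, which gives a value in CPM (counts per 1000000 protein-coding counts). All 4 libraries were made from total RNA of circulating white cells of adult C57BL6 mice, with no treatment or engineered allele named. Blood was separated on Ficoll, a density medium, and the neutrophils were recovered from what sank through it, once the red cells had been lysed. The study's supplement lists them as not sorted, and the monocytes, by contrast, were taken from the mononuclear layer by sorting for Gr-1 and Mac-1, surface proteins of myeloid cells. The neutrophil libraries held 21634828 and 20549572 estimated counts, of which 72.7% and 71.5% fell on protein-coding genes. In every pair of values the first is neutrophil replicate 1 and the second is neutrophil replicate 2. The study's methods allow replicates to be separate groups of mice or separately handled aliquots of 1 group, so the spread between the pair may be technical.

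A measured fact bears on the source of the cells. The methods name male mice, and the Y-linked genes Eif2s3y, at 2471 and 2371 counts, and Ddx3y, at 3479 and 2782 counts, were present in the neutrophil libraries. Xist, the noncoding RNA that silences an X chromosome in female cells, had 5088 and 4878 counts in the neutrophil libraries and 0 counts in both monocyte libraries. RNA of both kinds was thus present in both neutrophil libraries, and the reason was not tested. No neutrophil library stood apart from the other in this respect, so no value is given without one of them for this reason.

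Neutrophils are the short-lived phagocytes that circulate as the first line of defence against bacteria and fungi. They are built in the bone marrow, where promyelocytes fill azurophil granules with myeloperoxidase and serine proteases, myelocytes add specific granules, and later stages add gelatinase granules and secretory vesicles. Transcription of each granule set closes as the next opens, so that the RNA of a circulating cell holds mainly receptors, cytoskeleton, inflammatory mediators and the calcium-binding proteins S100A8 and S100A9. The maturation stage of a neutrophil population can therefore be read from which of these sets its RNA still holds.

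The 7 marker genes chosen for the cells were all expressed in both libraries. S100a9, a subunit of calprotectin, an antimicrobial protein of the cytosol, had 2433 and 3023 CPM and ranked number 12 by counts. Its partner S100a8 had 1539 and 1529 CPM and ranked number 37. Csf3r, the receptor for granulocyte colony-stimulating factor, had 3436 and 3253 CPM and Il1b, a fever-inducing cytokine, had 3357 and 3229 CPM, ranks 9 and 10. Cxcr2, a chemokine receptor that calls neutrophils from marrow into blood and on to inflamed tissue, stood at 1759 and 1732 CPM. Mmp8, the neutrophil collagenase, stood at 325 and 313 CPM, and Il1f9, a cytokine of the interleukin 1 family, at 252 and 262 CPM, ranks 642 and 872. The markers were chosen with earlier results of these data known, so their presence is a description and no test of the label. Among the 7, the largest fold between the libraries was 1.24, for S100a9. A count also grows with the length of the transcript, so levels were compared between genes only on the deposited TPM, a per-length value, rescaled to the sum over protein-coding genes. On that scale S100a9 stood at 13406 and 16016 and S100a8 at 12995 and 12290.2, number 3 and number 4 of all genes. Il1b at 7849 and 7263, Csf3r at 3266 and 2956 and Cxcr2 at 1175 and 1129 came below them. The median of the 7453 genes detected in both libraries, at a deposited TPM of at least 1, was 49.2. On the GRCm38 assembly S100a8 lies at chr3:90668978-90670035 and S100a9 at chr3:90692632-90695721, Il1b at chr2:129364570-129371139, Csf3r at chr4:126024550-126044440 and Cxcr2 at chr1:74153989-74161246, by the bounds of GENCODE M21, a later release than the one the authors counted on.

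The sequence just before the start of these genes differed in one feature that can be read by eye. The TATA box is an element that positions the transcription machinery a short distance upstream of the start. The 100 bases before the start of 4 marker genes are shown 5′ to 3′ on the gene's strand, from RefSeq on GRCm38.p6, whose start can lie inside the bounds given above, with the letters TATAAA in capitals where they begin 45 to 15 bases before the start:
S100a8 (chr3:90668971-90669070, plus strand): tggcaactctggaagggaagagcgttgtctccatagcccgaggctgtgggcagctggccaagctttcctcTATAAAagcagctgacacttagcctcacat
Il1b (chr2:129371140-129371239, minus strand): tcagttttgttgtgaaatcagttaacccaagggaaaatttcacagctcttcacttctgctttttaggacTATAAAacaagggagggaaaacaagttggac
Csf3r (chr4:126024559-126024658, plus strand): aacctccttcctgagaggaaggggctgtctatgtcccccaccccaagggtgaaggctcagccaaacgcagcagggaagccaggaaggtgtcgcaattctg
Cxcr2 (chr1:74153894-74153993, plus strand): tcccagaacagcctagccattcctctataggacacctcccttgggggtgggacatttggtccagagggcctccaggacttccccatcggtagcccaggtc
In S100a8 the match began 30 bases before the start and in Il1b 31 bases before it, and the window of Csf3r and Cxcr2 held no match. The same letters in that window were found for 10 of 98 promoters of the 100 genes with the highest counts (79 of which matched the RefSeq table), or 10.2%. Among the 100 genes highest per length, 70 of which matched, the share was 9.2% of 87 promoters. Among the 7453 detected genes, 6007 of which matched, it was 1.12% of 7686 promoters. Among protein-coding genes, 16317 of which matched, it was 2.67% of 19931. On either strand anywhere in the 250 bases upstream, TATAAA or its reverse complement TTTATA occurred in 14.3% of the promoters of the 100 highest genes by counts. That share was 6.31% for the promoters of detected genes and 11.1% for those of all protein-coding genes. The 10 genes with a match among the 100 highest were Ddx5, Il1b, Btg1, H2-D1, Slfn4, Eef2, S100a8, Hbb-bt, Fos and H3f3b, of which Eef2 and H3f3b were named after their values were seen. A match is a description of these letters, and it does not show that the element is used.

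The counts were spread over many genes. The 10 most abundant genes held 4.99% and 5.04% of protein-coding counts (5.02 ± 0.036, SD, n = 2), and the 100 most abundant held 17.57% and 17.64%. It took 824 and 831 genes to hold the upper 50% of counts. Per length the transcriptome was more concentrated, with 11.7% and 12.6% in the 10 highest genes and 480 and 452 genes for the upper 50%. In all, 7453 genes (34.7% of protein-coding genes) were detected in both libraries, and 6858 had 0 counts in both. The 2 libraries shared 28 of their 30 most abundant genes and 94 of their 100. The 100 highest by counts and the 100 highest per length had 49 genes in common. The list by counts favoured long transcripts, with a median effective length of 2694 bases, against 799.9 bases for the list per length and 2199 bases for the detected genes.

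**Figure D1:**
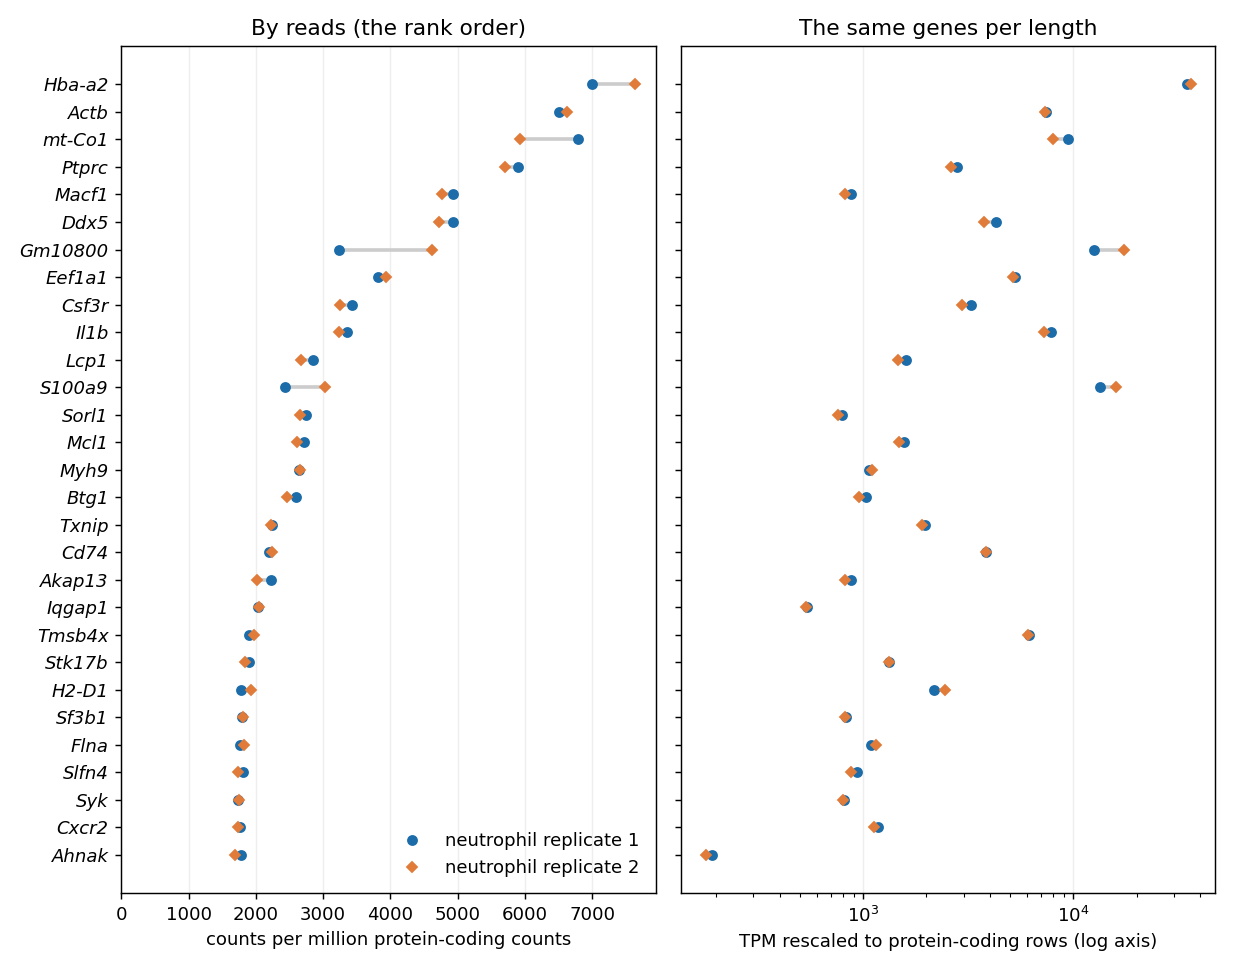
The protein-coding genes with the most counts in blood neutrophils, 29 of the first 30, as CPM (left) and as TPM rescaled to protein-coding rows on a log axis (right), with a point for each of the 2 libraries. Hba-a2 led on both scales, S100a9 stood far higher per length than by counts, and the points of a gene lay furthest apart for Gm10800, at 3236 and 4622 CPM.

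Hba-a2, an alpha globin gene of red cells, was the most abundant gene at 7003 and 7644 CPM. It was followed by Actb, the actin of the cell cortex, at 6509 and 6626 CPM. The mitochondrially encoded genes were led by mt-Co1, a subunit of cytochrome c oxidase, at 6796 and 5922 CPM, and the 13 of them together held 1.02% and 0.927% of counts. Next came Ptprc, which encodes CD45, the phosphatase that marks white blood cells, at 5890.1 and 5702 CPM, and Macf1, a very long linker of actin and microtubules, at 4937 and 4775 CPM. Ddx5, an RNA helicase, had 4935 and 4715 CPM, and Eef1a1, the translation elongation factor, had 3811 and 3935 CPM. Gm10800, a predicted gene, held rank 7 at 3236 and 4622 CPM, and of the 100 most abundant genes it differed most between the libraries (log2 -0.51 for replicate 1 over replicate 2). Whether all of its reads arose from its own locus was not tested. Only Hba-a2, of these first genes, belongs to a list of another cell type.

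Most of the rest of the 30 fell into a few kinds. Genes of the cytoskeleton and its membrane links were Lcp1 (L-plastin) at 2849 and 2672 CPM, Myh9 (nonmuscle myosin) at 2643 and 2654 CPM, Flna (filamin A) at 1759 and 1827 CPM, Tmsb4x (thymosin beta 4) at 1899 and 1966 CPM, the scaffold Iqgap1 at 2028 and 2044 CPM and the giant protein gene Ahnak at 1774 and 1691 CPM. Surface proteins and signalling were represented by the sorting receptor Sorl1 at 2751 and 2653 CPM, the kinase Syk at 1738 and 1755 CPM, the kinase Stk17b at 1905 and 1831 CPM and the anchoring protein Akap13 at 2229 and 2019 CPM. Genes of survival and growth arrest were Mcl1 at 2712 and 2608 CPM, Btg1 at 2597 and 2457 CPM and Txnip, an inhibitor of thioredoxin, at 2246 and 2225 CPM. Slfn4, a myeloid Schlafen gene, stood at 1808 and 1736 CPM, the MHC class I gene H2-D1 at 1784 and 1935 CPM, the splicing factor Sf3b1 at 1801 and 1809.6 CPM and the MHC class II chaperone Cd74 at 2189 and 2243 CPM. The values of each gene lay near each other, and the order of neighbours in this range is not fixed by the pair.

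Ranking per length brought the short genes forward. The highest after Hba-a2 were Gm10800 at 12558 and 17330.4, S100a9 and S100a8, and then mt-Co1 at 9461 and 8030.4, Il1b and Actb at 7367 and 7351 rescaled TPM. Tmsb4x stood at 6138 and 6106, Eef1a1 at 5293 and 5134, Ddx5 at 4268 and 3769.5 and Lyz2, the lysozyme of myeloid cells, at 2828 and 2959.8 rescaled TPM. The globin genes Hbb-bs at 6493 and 7161, Hbb-bt at 4989.9 and 4793 and Hba-a1 at 4258 and 4087, and the MHC class II genes Cd74 at 3859 and 3826 and H2-Ab1 at 2864 and 2985, were also among the 20 highest. The 86 ribosomal protein genes held 2.51% and 2.72% of counts but 8.9% and 9.39% of the per-length total, and 33 of them were among the 100 highest per length, against 2 by counts. The highest of them were Rps24 at 3101 and 3015 and Rps27 at 3100.2 and 2732 rescaled TPM. The value of mt-Atp8, at 5763 and 7708, rests on 2420 and 3396 counts over an effective length of only 51 bases in replicate 1.

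Function was read from 25 lists of genes, and 19 of them had a median member above the 49.2 of detected genes. The share of members detected can be set against the 34.7% of all protein-coding genes. A gene could stand in more than 1 list.

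Cytoskeletal genes held the largest share of counts of these groups, and the mature neutrophil list held the largest share per length (4.60%, against 3.41% for the actin list). The 28 genes of the actin cytoskeleton were all detected, held 2.95% and 2.99% of protein-coding counts and had the highest median of the 25 lists, 728 rescaled TPM. After Actb and Tmsb4x its highest members were Lsp1, a leukocyte actin-binding protein, at 1849 and 1809, and Lcp1 at 1597 and 1466 rescaled TPM. The list of S100 and annexin proteins held 0.547% and 0.614%, most of it in S100a8 and S100a9. Anxa1, a calcium-dependent phospholipid-binding protein that restrains inflammation, followed at 978 and 875 and S100a6 at 714 and 897 rescaled TPM. Between the libraries S100a9 differed beyond counting error (log2 -0.31 for replicate 1 over replicate 2, adjusted p = 5.85e-210), and S100a8 did not pass the same exact binomial test (log2 0.01, adjusted p = 0.656). That test covers counting error only and not the usual spread between replicates.

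Receptors that guide neutrophils were present in number. Of 15 chemoattractant receptors 12 were detected, and they held 0.408% and 0.396% of counts. After Cxcr2, the highest were Cxcr4, the receptor for the marrow retention signal CXCL12, at 1065 and 942, and Ccr1, a receptor of CC chemokines, at 371 and 369 rescaled TPM. Ptafr, the receptor of platelet-activating factor, stood at 139 and 139. Cxcr2 and Cxcr4, which have opposed effects on the residence of neutrophils in marrow, stood close to each other in level in both libraries. For adhesion, 15 of 16 genes were detected, among them the hyaluronan receptor Cd44 at 547 and 572, and the integrin subunits Itgb2 at 464 and 485 and Itgam at 489 and 439 rescaled TPM.

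Cytokines were dominated by a single gene. The list of 25 cytokines and chemokines held 0.577% and 0.564% of counts, and Il1b alone accounted for 3357 and 3229 of its 5766 and 5640.2 CPM. Per length, Ccl6, a CC chemokine of mouse myeloid cells, stood at 1219.8 and 1168, Il16 at 487 and 466 and Il1f9 at 326 and 331 rescaled TPM. The median of the list, 28.1, lay below that of detected genes, and Cxcl1, a neutrophil-attracting chemokine, had 0 counts in both libraries (named after its value was seen). Among cytokine receptors 23 of 25 were detected. Csf3r was the highest, followed by the interleukin 1 decoy receptor Il1r2 at 555 and 629, Il17ra at 273 and 266 and the interferon gamma receptor chain Ifngr1 at 254 and 231 rescaled TPM. Il1r1, the signalling receptor for interleukin 1, which was also named after its value was seen, had 8 and 12 counts.

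Sensing and killing genes were broadly detected at moderate levels. Of 24 pattern recognition genes 21 were detected. The highest was Clec7a, which encodes the fungal sensor dectin-1 and is annotated as a polymorphic pseudogene, at 1574 and 1586. The C-type lectins Clec4d at 373 and 396 and Clec4e at 185 and 193 and the amplifying receptor Trem1 at 178 and 177 rescaled TPM followed. The NADPH oxidase makes the superoxide of the oxidative burst, and its 8 genes were all detected. The cytosolic subunit Ncf1 stood at 459 and 442, ahead of the membrane subunit Cyba at 263 and 271 and the proton channel Hvcn1 at 262 and 258 rescaled TPM. Among Fc receptors and their signalling partners 12 of 14 were detected, with the adaptor Tyrobp at 1401 and 1506, Syk at 807 and 797, Fcgr3 at 700.4 and 714 and the kinase Lyn at 588 and 544 rescaled TPM, and Lilrb4a could not be matched by name. Inflammasome genes, 11 of 12 detected, were led by Txnip at 1974 and 1907, the DNA sensor Aim2 at 218 and 212, Nlrp3 at 156 and 149 and Nlrp12 at 154 and 149 rescaled TPM.

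Interferon-response genes held 0.67% and 0.676% of counts, and 31 of 33 were detected. Schlafen genes were the highest, with Slfn2 at 1356 and 1367, Slfn4 at 934 and 874 and Slfn1 at 747 and 708, followed by Ifitm2 at 548 and 579 rescaled TPM. Immediate early genes held a larger share, 0.967% and 0.981%, with 20 of 21 detected. Fos, a subunit of the AP-1 transcription factor, stood at 1288 and 1310.1, the antiproliferative gene Btg1 at 1029.9 and 952, the phosphatase Dusp1 at 980.4 and 989 and Junb at 862 and 1011 rescaled TPM. Of 23 myeloid transcription factors 16 were detected, led by Mxd1, a repressor that opposes Myc, at 658 and 632, the Kruppel-like factors Klf6 at 619.9 and 599 and Klf2 at 439 and 473, and Stat3 at 393 and 454. Myc itself had 178 and 127 counts and Cebpe, a factor of the specific granule stage, had 83 and 79 (both named after their values were seen).

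Metabolic and housekeeping groups completed the picture. All 20 genes of glycolysis and glycogen use were detected, led by the pyruvate kinase gene Pkm at 751 and 766, the glycogen phosphorylase gene Pygl at 703 and 647, Gapdh at 578 and 591 and Aldoa at 478 and 458 rescaled TPM. Iron genes were led by the ferritin chains Ftl1 at 1371 and 1578 and Fth1 at 1003 and 1108, by haptoglobin (Hp) at 892 and 979 and by the iron exporter Slc40a1 at 267 and 260.5. MHC class I genes, all 14 detected, were led by B2m at 2997 and 2589.8, H2-D1 at 2175 and 2447, H2-K1 at 1401 and 1499 and the chaperone Calr at 771 and 706. In the list of survival and death genes, the antiapoptotic Mcl1 at 1569.9 and 1474 stood above Birc3 at 729.9 and 695, Cflar at 174 and 171 and Birc2 at 116 and 100.1 rescaled TPM. The stefins, cysteine protease inhibitors of a mouse gene cluster, held 0.00767% and 0.00814% of counts, and 4 of 10 were detected. Stfa2l1 at 267 and 258, Gm5483 at 186 and 202, Cstb at 42.3 and 41.9 and Stfa1 at 28 and 28.5 rescaled TPM were the highest, and genes this alike can share reads.

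**Figure D2:**
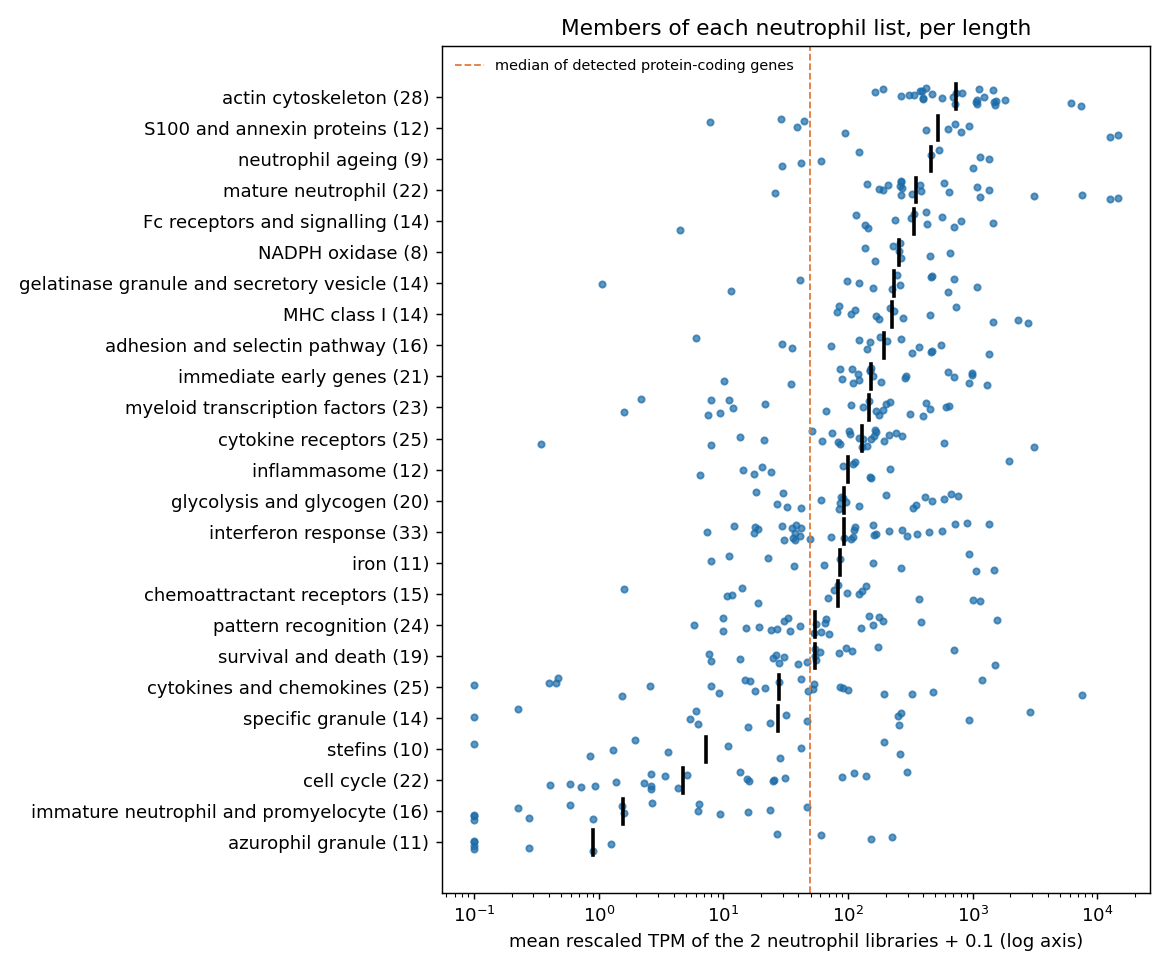
Level per length of each member of the 25 neutrophil lists, as the mean rescaled TPM of the 2 libraries plus 0.1 on a log axis, with the number of genes in parentheses, a black bar at each list's median and a dashed line at the median of detected genes, 49.2. The azurophil granule, immature neutrophil and cell cycle lists lay lowest, and the actin cytoskeleton list lay highest. Members at 0 in both libraries are drawn at 0.1, and Lilrb4a, which was not matched, is left out.

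RNA for the classic proteins of the earliest granules was near absent. Elane, Ctsg, Bpi and Ms4a3 had 0 counts in both libraries, which allows up to 0.191 and 0.204 CPM (a floor of 3 counts per library). Myeloperoxidase (Mpo) had 2 and 4 counts and the protease gene Prtn3 had 2 and 0. Of 11 azurophil genes 4 were detected, a share near the 34.7% of all protein-coding genes, and they include Serpinb1a at 221 and 228, Ctsc at 155 and 149 and Cd63 at 35.3 and 18.5 rescaled TPM, which encode a protease inhibitor, a lysosomal protease and a granule membrane protein. Cd63 was the one of the 4 that differed between the libraries (log2 0.88 for replicate 1 over replicate 2, adjusted p = 5.57e-06, exact binomial test).

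Specific granule genes were split. Camp, the cathelicidin peptide, had 26 and 17 counts and Ngp, another marrow-stage granule gene, had 227 and 153. Lactoferrin (Ltf) had 318 and 325 counts, the early ficolin gene Fcnb had 0 and 2 and Ptx3, a secreted pentraxin, had 0 in both. Other members were higher, with Lyz2 at 2828 and 2959.8, Hp at 892 and 979, Mmp8 at 273 and 257 and Lcn2, which binds bacterial siderophores, at 253 and 258 rescaled TPM. On the same scale Camp stood at 7.32 and 4.97, although its peptide is carried in the same granule as Mmp8. Gelatinase granule and secretory vesicle genes, 12 of 14 detected, had a median of 235 rescaled TPM. They were led by Retnlg, a resistin-like secreted protein, at 1038 and 1143, Fcgr3, the gelatinase Mmp9 at 641 and 629 and Itgb2. The list medians stood in the order in which the granules form, 0.796 for azurophil, 27.6 for specific and 235 for gelatinase granules and vesicles. In the monocyte libraries the same lists stood in the same order, at 0.214, 0.753 and 48.1. The order is thus not particular to the neutrophil libraries, and Lyz2 was higher in the monocytes, at 14730 and 13888 rescaled TPM.

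Genes of late and of early stages stood at opposite ends. The lists were chosen with earlier results of these data known, so this is a description and no test of stage. All 22 genes of the mature neutrophil list were detected, with 2.03% and 2.07% of counts and a median of 354 rescaled TPM. Beside the markers already given it held Cd101, a surface protein gained in the last stage, at 271 and 272, and Ly6g, the antigen by which neutrophils are usually sorted, at 22.8 and 28.7, the lowest of the list (both named after their values were seen). In contrast, 3 of 16 genes of immature neutrophils and promyelocytes were detected, with 0.0117% and 0.013% of counts and a median of 1.46. These were Cd177, a surface protein of a neutrophil subset, at 41.4 and 51.7, Ngp at 27.9 and 19.5 and Ltf at 15.1 and 16 rescaled TPM, and Cebpe, at 9.44 and 9.33, was the next below them. Of 22 cell cycle genes 9 were detected, and 6 of those, chosen after their values were seen, were the Mcm2 to Mcm7 helicase genes. Hmgb2 at 298 and 297, Pcna at 154 and 127, Tuba1b at 105 and 117 and Mcm7 at 88.3 and 91.8 rescaled TPM led the list, while the mitotic genes Cdk1 at 4 and 8 and Ccna2 at 2 and 3 had only a few counts. Genes linked to the ageing of circulating neutrophils were all detected, 9 of 9. They included Cxcr4, which rises as cells age, and Clec2d, a lectin-like receptor, stood at 557 and 526 rescaled TPM. The part of other blood cells in the levels of these genes was not tested.

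**Figure D3:**
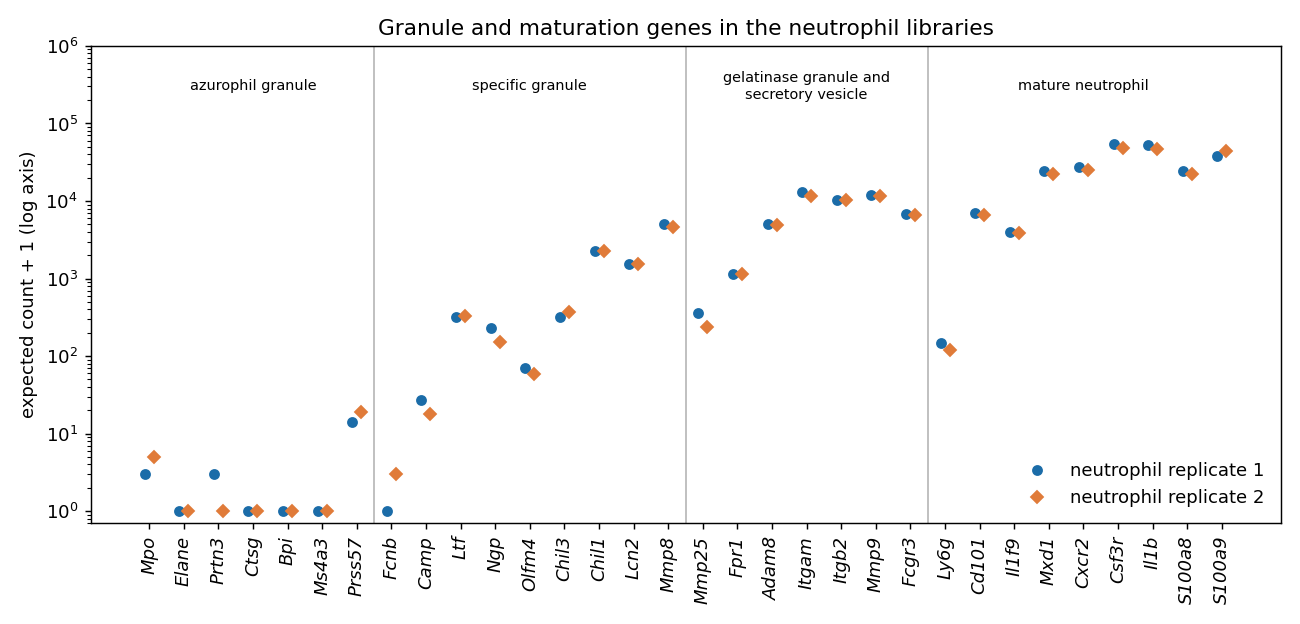
Expected counts plus 1 on a log axis for 32 granule and maturation genes in each neutrophil library. The counts rose from single reads for the azurophil genes Mpo and Prtn3 to 54017 and 47782 for Csf3r, and the points of the 2 libraries lay close together for genes with more counts than Mmp25, at 359 and 234.

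Genes of other blood cells were then counted. In bulk RNA, fewer cells of a type and less RNA per cell cannot be told apart, so these shares are shares of counts and not of cells. The largest trace was that of red cells, with 1.12% and 1.22% of protein-coding counts in the neutrophil libraries and 0.82% and 0.878% in the monocyte libraries. It came from the 4 globin genes and from Alas2, the first enzyme of haem synthesis in red cells, at 358 and 364 rescaled TPM. The anion exchanger gene Slc4a1, at 14.2 and 12.3 and named after its values were seen, was not detected at the TPM threshold. Of the 10 red cell genes 5 were thus detected.

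B cell genes were the next largest with their immunoglobulin entries counted in, and their list was complete. The rank of the list without those entries was not examined. All 16 genes of the list were detected, and they held 0.99% and 0.976% of protein-coding counts, against 0.137% and 0.161% in the monocyte libraries. The immunoglobulin constant genes Igkc at 5138 and 5029, Ighm at 3464 and 3286 and Ighd at 1018 and 991 were the highest, followed by the receptor subunit Cd79b at 963 and 926 rescaled TPM. These 3 are not protein-coding entries, and their counts were set against the protein-coding sum. The lowest of the list by its mean, the kinase gene Blk, which was named after its values were seen, stood at 194 and 188, above the median of detected genes. MHC class II genes, which B cells, dendritic cells and some monocytes use to present antigen, were also all detected, 10 of 10, with 0.717% and 0.757% of counts against 0.197% and 0.192% in monocytes. Cd74 and H2-Ab1 were followed by H2-Aa at 2297 and 2276 and H2-Eb1 at 1522 and 1729.5 rescaled TPM. Plasma cell genes held only 0.0348% and 0.037%, with Xbp1 at 184 and 188, Irf4 at 63.1 and 69.1 and Mzb1 at 60.1 and 68.4, and the antibody joining chain Jchain, named after its value was seen, had 70 and 79 counts.

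The monocyte trace was smaller. The 16 monocyte genes held 0.155% and 0.16% of counts in the neutrophil libraries, and 11 were detected. Its highest members were Ctss, a lysosomal protease, at 928 and 964 and Apoe, a lipid carrier, at 408 and 436 rescaled TPM, and the receptor Csf1r stood at 90.8 and 82.9 and Ly6c2 at 85.2 and 84.7. Ctss alone held 575 and 614 of the list's 1555 and 1599 CPM, and which cells its RNA came from was not tested. The monocyte libraries held 1.52% and 1.47% for the same list. T cell genes held 0.0387% and 0.04%, with 12 of 17 detected, led by Cd3g at 89.5 and 94.9, Trbc2 at 75.4 and 83.7, Lck at 55.8 and 71.7 and Trbc1 at 57.6 and 58.9 rescaled TPM. Natural killer (NK) cell genes held 0.00475% and 0.00495%, and only Gzma at 39.8 and 40.8 and Klrd1 at 23.7 and 30.2 were detected, followed by Ncr1 at 9.32 and 3.61 and Nkg7 at 6.14 and 7.71. The monocyte libraries held 0.372% and 0.379% for that list.

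Other granulocytes and platelets left little RNA. Eosinophil genes held 0.00785% and 0.00911% of counts, against 0.133% and 0.149% in the monocyte libraries. Siglecf at 29.7 and 33.7, Il5ra at 22.4 and 23.1 and Ear2 at 13.2 and 23.3 rescaled TPM were detected, Ccr3 stood at 10.4 and 10.9, and the granule genes Prg3 and Ear6 had 0 counts in both neutrophil libraries. No gene of the basophil and mast cell list reached the detection threshold, although 7 of 8 had some counts. The list held 0.00118% and 0.00104% of counts. Its highest members, Ms4a2 at 27 and 78.4, Cd200r3 at 37 and 16, Cpa3 at 39 and 13 and Gata2 at 70 and 32 counts, differed in both directions between the libraries, and the basophil protease Mcpt8 had 0 in both. Platelet genes held 0.0255% and 0.0277%, with 6 of 12 detected, led by Ppbp at 104 and 111, Tubb1 at 63.4 and 73.1, Pf4 at 45.3 and 41.3 and Itga2b at 39 and 43.4 rescaled TPM. Of 10 dendritic cell genes only Tcf4, at 77.9 and 70.4, was detected, Cd209a at 10.5 and 13.6, Ccr9 at 4.84 and 3.85 and Clec9a at 2.95 and 3.36 came next, and Klk1 had 0 counts. Tcf4 alone held 154 and 137 of the 180 and 165 CPM of the dendritic cell list. The share of these other cells in genes that several cell types can express, such as Cxcr4 and the MHC and interferon groups above, was not tested.

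**Figure D4:**
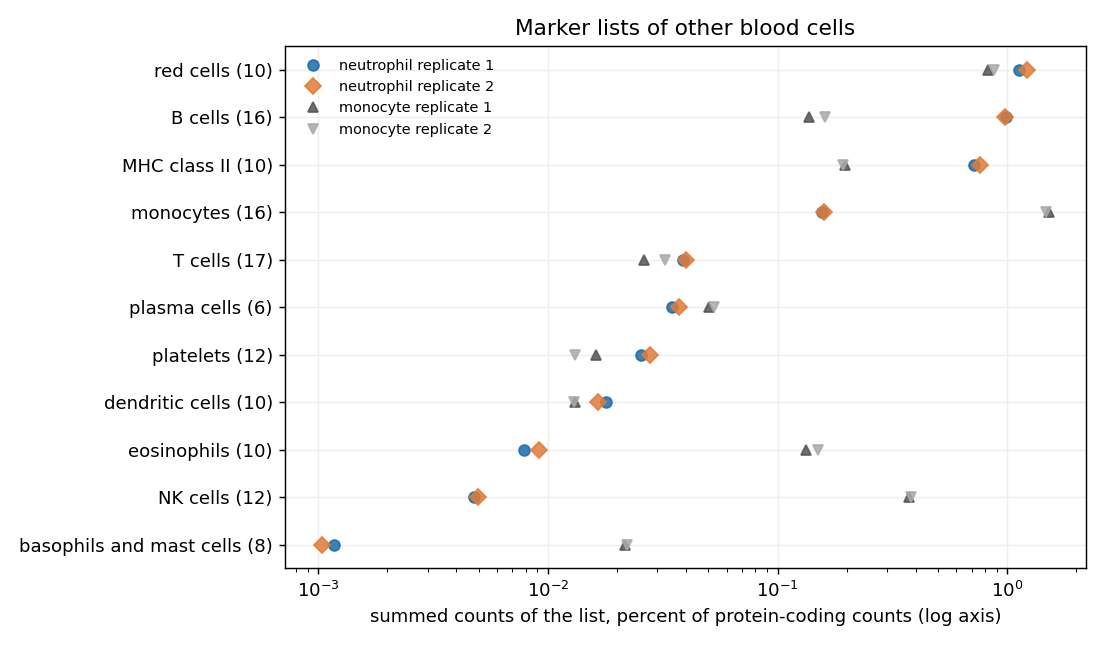
Summed counts of 11 marker lists of other blood cells, as a percent of protein-coding counts on a log axis, in the 2 neutrophil and 2 monocyte libraries (number of genes in parentheses). The B cell sum includes Igkc, Ighm and Ighd, which are not protein-coding entries. Both neutrophil libraries stood above both monocyte libraries for red cells, B cells, MHC class II, T cells, platelets and dendritic cells, and below them for the other lists, as values side by side with no test.

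The 2 neutrophil libraries agreed closely but not within counting error. Spearman's rho over the 12224 genes with at least 10 counts in sum was 0.993, which is across genes and is given as a description. Of the 7453 detected genes 98.6% differed by less than 1.5-fold, and all of the 100 most abundant did, with a median absolute log2 ratio of 0.05. Spread beyond counting error, as edgeR's biological coefficient of variation, was 9.63% for the neutrophil pair and 47.0% for the monocyte pair. Against counting error alone, an exact two-sided binomial test called 3401 of 12224 genes (27.8%) at an adjusted p under 0.05, 1647 higher in replicate 1 (13.5%) and 1754 higher in replicate 2 (14.3%). Of the 100 most abundant genes 66 were called, as small differences pass this test at high counts. The test compares these libraries and no condition. By at least 1.5-fold 971 genes were called (7.94%), of which 20 had a mean of at least 20 CPM, and the 585 genes called by at least 2-fold all had a mean of 14.6 CPM or less.

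Among genes with a mean of at least 20 CPM, the largest differences were under 2-fold. Higher in replicate 1 were Gm38394, a predicted gene, at 1442 and 735 counts, Tepsin, an adaptor-binding protein of vesicle coats, at 449 and 236 counts, Fuz, a ciliogenesis gene, at 495 and 293, Slc5a3, a myo-inositol transporter, at 403 and 247, and the zinc finger gene Zfp60 at 494 and 308. Their log2 ratios ran from 0.58 to 0.87. Higher in replicate 2 were the histone gene Hist1h2ap at 317 and 585 counts, Zbtb9 at 284 and 512, the ribosomal stalk protein Rplp1 at 3992 and 6675, Ndufb8, a subunit of respiratory complex I, at 317 and 519, and the ADP/ATP carrier Slc25a4 at 392 and 625. Their log2 ratios ran from -0.98 to -0.77. The read assignment of Hist1h2ap was uncertain, with a posterior coefficient of variation of 18.8% in replicate 1, and that of Zbtb9 was 10.4% there.

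Transcript length moved with the direction of these differences. Over all 12224 tested genes, 13.5% were called higher in replicate 1 and 14.3% in replicate 2. Of the 6569 tested genes with a mean of at least 20 CPM, 1040 and 1046 were. Of the 238 genes detected in both libraries and under 500 bases of effective length, 13 were called higher in replicate 1 and 80 higher in replicate 2. Their median log2 ratio was -0.11. Of the 1288 detected genes over 4000 bases, 306 were called higher in replicate 1 and 104 in replicate 2, with a median of 0.03. Of 84 ribosomal protein genes 8 were called higher in replicate 1 and 43 in replicate 2. Many of them belong to the group under 500 bases, so they are no separate support. The 13 mitochondrially encoded genes went the other way, with 7 called higher in replicate 1 and 3 in replicate 2. S100a9 was higher in replicate 2 (log2 -0.31) and S100a8, the shorter of the pair, was not. The interferon list also had 1 call for replicate 1 and 11 for replicate 2 among 32 tested genes, at a median of -0.10, and the mature neutrophil list had 2 and 8 among 22, at -0.03. Calls were more frequent at high counts, with 66 of the 100 most abundant genes called against 27.8% of all tested genes. Whether these lists differ from other genes of like abundance was not tested. The part of length in these differences was not tested.

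**Figure D5:**
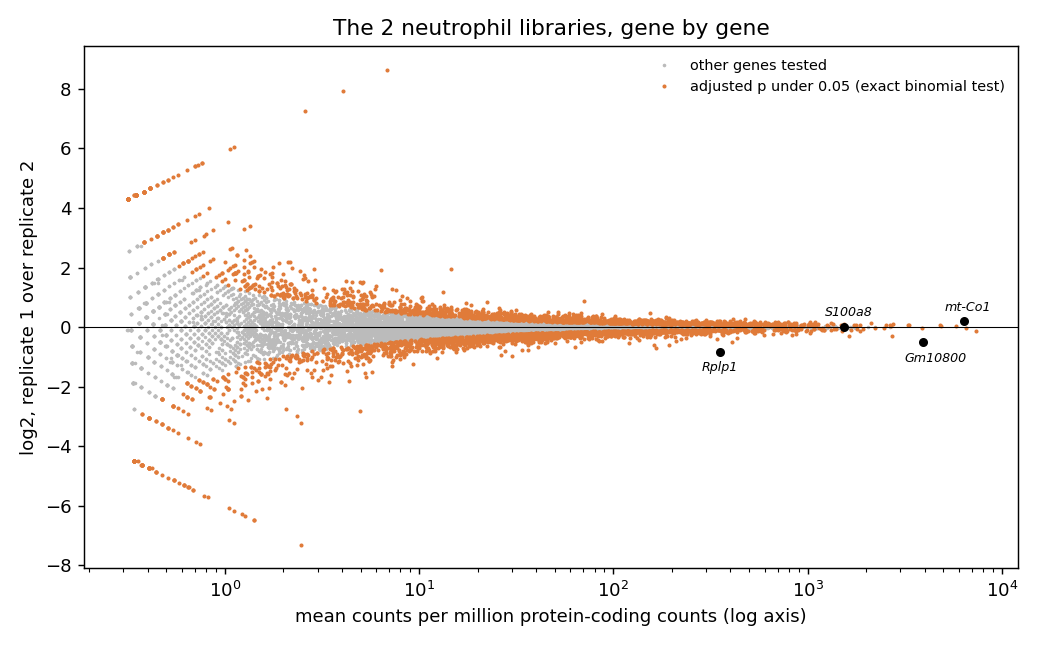
Log2 ratio of neutrophil replicate 1 over replicate 2 for the 12224 tested protein-coding genes against their mean CPM on a log axis, with the 3401 genes called by the exact binomial test in orange and 4 named genes in black. The ratio was taken after adding 0.5 to each count. The cloud narrowed with depth, and the large ratios lay among genes of low CPM.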

How the data were processed

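Total RNA of 2 neutrophil and 2 monocyte samples from mouse blood was sequenced after removal of ribosomal RNA (Ribo-Zero) and ScriptSeq v2 library preparation, with 15 cycles of PCR and no molecular identifiers. Per the paper's methods, the authors aligned reads to mm10 with STAR and counted Gencode M4 genes with RSEM, which the submitters' processing notes also name beside bcl2fastq. How strand was treated in counting was not found in the labels or methods, so reads of overlapping antisense genes may not be told apart. The deposited files hold, for each gene, an expected count (a read shared between genes is split by likelihood), a posterior mean count, the posterior SD of that estimate (a score in the unit of counts), an effective length and a TPM value, all made by the authors with RSEM from each sample alone.

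Of 69690 entries per file, 43346 carried a gene identifier, 42462 of these were matched by identifier to GENCODE M21, a later release that gave the symbols, classes and coordinates used here, and 21474 were protein-coding there. Expected counts were divided by the protein-coding sum (15719734 and 14690685 in the neutrophil libraries). TPM was rescaled in the same way, because protein-coding genes held only 84724 and 80427 of the TPM total. Detection asked that the deposited TPM reach 1 in each library of the pair. This is stricter than a rescaled TPM of 1, which 10768 genes reached, so genes with counts in both libraries can fall below it. A count of 0 was read as under 3 counts, and floors and intervals cover counting error only. The neutrophil libraries were compared gene by gene, where the summed count was at least 10, by an exact two-sided binomial test with Benjamini-Hochberg adjustment (SciPy 1.17.1). The coefficient of variation beyond counting error came from edgeR 4.0.16, and size factors for an alternative from DESeq2 1.42.0 on rounded counts. The scripts were tested on simulated data. Neutrophils and monocytes were not tested against each other, and monocyte values are given only side by side.

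The members and lists were chosen with earlier results of these data known. Genes were named if among the 30 highest by counts, the 20 highest per length, the 4 highest of a list, the markers, members of the azurophil, specific granule and other-cell lists at 0, or the 5 largest differences in each direction between the libraries at a mean of at least 20 CPM. A few genes that this rule names are not reported here. Other names are said to be chosen after their values were seen. Replicates were numbered by order of accession and do not pair with the monocyte libraries. Alternatives were TPM, other sums, the posterior mean, other limits of detection and filters, and leaving out a replicate.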

Additional observations from a re-analysis of the deposited data

Results flagged for a closer look

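Entries outside the gene annotation held some counts, above the 3 counts that a count of 0 allows. The 96 spike-in control sequences had 85 expected counts in monocyte replicate 1 and 16 in monocyte replicate 2, and 0 in both neutrophil libraries. The 26248 entries named only by a number had 70 expected counts in monocyte replicate 1, 8 in monocyte replicate 2, 37 in neutrophil replicate 1 and 46 in neutrophil replicate 2. None of these entries entered the sums or tests above. Each group holds only 2 libraries, so no library was examined for standing apart from its group.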

How the results depend on the processing

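The share of the 10 most abundant genes, 5.02%, was 12.1% per length on TPM, 4.72% without mitochondrially encoded genes, 19.3% over all entries with a gene identifier, and 4.69% without the red cell, B cell and MHC class II lists (an alternative chosen after seeing the data). For the 100 most abundant genes, 17.6%, the values in the same order were 29.02%, 17.2%, 35.1% and 17.1%. The number of genes holding the upper 50% of counts, 827.5 on average, was 466 on TPM and 408.5 over all entries. The 7453 detected genes became 2954 at a TPM of at least 5, 11179 at 10 or more expected counts and 10768 at a rescaled TPM of at least 1. The 3401 genes that differed between the libraries became 971 at 1.5-fold or more and 585 at 2-fold or more, and 3301 to 3412 with other scaling factors or no filter on low counts, and 3056 at 50 or more counts in sum. Leaving out a replicate gave 4.99% to 5.04% for the 10 genes, 17.57% to 17.64% for the 100 genes, 824 to 831 genes for the upper 50%, and 7627 to 7764 detected genes. The rank correlation lay between 0.985 and 0.993 under every alternative run. Of 37 lists, 34 moved by more than the spread between replicates on TPM, 37 over all entries, 9 without mitochondrially encoded genes and none on the posterior mean count. Of the 34 other lists, 23 moved without the red cell, B cell and MHC class II lists. With 2 libraries, leaving out a replicate can never move a mean by more than their spread, so it tests nothing here. The shift on TPM follows from length, as it divides counts by it. No paired analysis was possible because the neutrophil and monocyte replicate numbers come from the order of the samples alone and no groups were compared. With 2 libraries, the spread between replicates is itself poorly known, the replicates may share mice, and genes under 3 counts cannot be told from absent at this depth.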
